A study of Mus musculus with 4 samples.

Results

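Tetraspanins are small proteins that cross the membrane several times, bind integrins, immunoglobulin-domain proteins and metalloproteases sideways in the membrane, and gather them into local webs. Cd53 and Cd37 are best known from leukocytes, where both shape adhesion and receptor signalling, whereas Cd9, Cd63, Cd81, Cd82 and Cd151 are found on many adherent cells, including myoblasts. In muscle, Cd9 and Cd81 are known for their part in the control of myoblast fusion.

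The 7 genes were Cd53, Cd37, Cd9, Cd63, Cd81, Cd82 and Cd151, and every non-control probe that the array annotation gives to one of these names was taken. This gave 11 probes, each printed in 1 spot, of 55681 probes on the array, with 3 for Cd37 and Cd53 and 8 for the other 5 genes. Cd53 stands in the list of transcripts that was selected on these same arrays for a difference between the conditions. For the 7 genes the siFxr1 values are therefore given as a description and not as a test.

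RNA came from C2C12, a mouse myoblast line that can be differentiated into myotubes. The cells were transiently transfected with an siRNA against Fxr1 (siFxr1), which encodes an RNA-binding protein, or with a control siRNA of the same GC content (siControl), with the same lipid reagent in both conditions. There were 2 experiments, each with 1 siFxr1 and 1 siControl sample, and each of the 4 samples was labelled with Cy3 and hybridised to 1 array. The labels give an RNA integrity number of 8 to the siFxr1 sample of experiment 1, and 9 to the rest. The samples of an experiment shared a slide and a scan, so experiment, slide and scan cannot be told apart. The samples are all of one line and the RNA was of whole cultures, in which fewer cells carrying a transcript and less of it per cell cannot be told apart.

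Values are background-corrected intensities on the log2 scale, quantile-normalized between the arrays, so a difference of 1 is 2-fold. A probe was well above background on an array when the scanner software marked it so. Between 45.4% and 52.9% of probes were well above background on an array, and 0 spots were saturated. With 4 arrays, their number limits the precision. Unless stated, the SE of a difference between the conditions is from the limma fit without the experiment as a block. It therefore includes the spread between the experiments. The SE of a difference between the experiments is from the fit with the condition as a term. The brighter Fxr1 probe had a signal of 13.85 and 13.71 in siControl and of 10.15 and 10.77 in siFxr1 of experiments 1 and 2, which is 12.9-fold and 7.64-fold lower. Of 12 myoblast and muscle markers, 11 were well above background, and Myf5 was not on any array. The leukocyte marker Ptprc was not above it on any array either.

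The probes decide what is measured for the leukocyte pair, so the 3 are shown first, read as in the transcript. The Cd53 probe and the second Cd37 probe are given whole. The brighter Cd37 probe is given as a stretch of 30 bases, in which the capitals mark a polyadenylation hexamer, AATAAA.
Cd53 A_51_P337675: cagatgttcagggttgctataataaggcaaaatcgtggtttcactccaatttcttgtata
Cd37 A_55_P2174490: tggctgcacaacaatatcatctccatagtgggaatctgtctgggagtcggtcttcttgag
Cd37 A_55_P2118570: catgacacctcaAATAAAtcccctttgggt
The Cd53 probe lies on the minus strand of mm9 at chr3:106565046-106566140. Its 60 bases span 1095 bases of the genome, so it crosses a splice junction. Both Cd37 probes lie on the minus strand of chromosome 7, at chr7:52490054-52490113 and chr7:52489002-52489061, and start at positions 819 and 1166 of the transcript. The hexamer stands in the one nearer to the transcript's end.

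Cd53, a leukocyte tetraspanin, had the widest spread of the 7 genes. Its signal was 4.78 and 5.31 in siControl and 7.95 and 10.55 in siFxr1 of experiments 1 and 2. Both siFxr1 samples lay above both siControl samples, and the siControl array of experiment 1 was not well above background. Before normalization the intensities were 21.5 and 50.8 in siControl and 183 and 1716 in siFxr1. The siControl mean was 5.04 ± 0.38 (SD, n = 2) and the siFxr1 mean 9.25 ± 1.84 (SD, n = 2), a difference of 4.21 (SE 1.05). The siFxr1 signal was at least 9.03-fold that of siControl in experiment 1, where siControl has only a bound, and 37.8-fold in experiment 2. The size depends on the handling of background at this low siControl signal: without background subtraction the mean difference was 2.49, and with normexp correction it was 2.62.

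Cd37, the other leukocyte tetraspanin, is most abundant in B cells. Its brighter probe, A_55_P2118570, was well above background on the 4 arrays, with a signal of 8.16 and 7.43 in siControl and of 8.59 and 8.11 in siFxr1. The conditions overlapped, since siControl of experiment 1 lay above siFxr1 of experiment 2. Within each experiment siFxr1 was the higher, by 0.42 and 0.67, with a mean difference of 0.55 (SE 0.37). The dimmer probe, A_55_P2174490, had 4.35 and 3.40 in siControl and 3.69 and 5.39 in siFxr1, and was well above background only in siFxr1 of experiment 2. Its differences, -0.66 and 1.99, had opposite signs, and no fold is given for it.

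**Figure D1:**
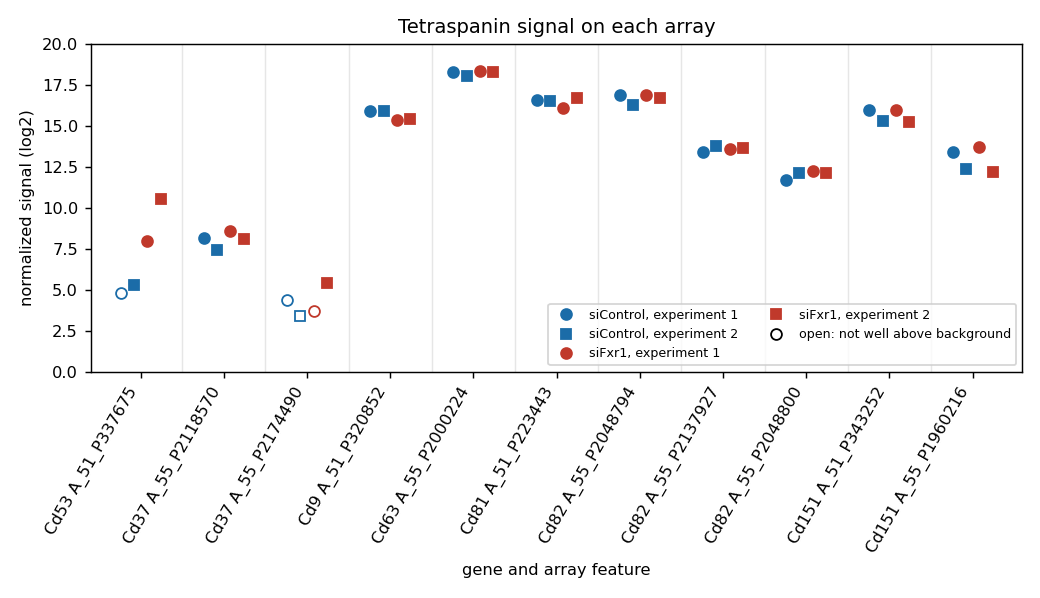
Normalized log2 signal of the 11 tetraspanin probes (x axis) on each array (y axis); blue is siControl, red is siFxr1, circles are experiment 1, squares are experiment 2, and open symbols were not well above background. The Cd53 symbols run from 4.78 to 10.55 with both red ones on top, while the Cd63 symbols lie between 18.07 and 18.33; probes differ in brightness for reasons of their own, so heights are to be read within a probe.

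The 5 tetraspanins of adherent cells were well above background on the 4 arrays with all 8 probes. Cd9, a partner of integrins and of Igsf8 and Ptgfrn, had a signal of 15.93 and 15.92 in siControl and of 15.38 and 15.40 in siFxr1. The conditions did not overlap. Its probe lies at chr6:125410387-125410446 of mm9. The siControl mean of Cd9 was 15.93 ± 0.01 (SD, n = 2) and the siFxr1 mean 15.39 ± 0.02 (SD, n = 2), a difference of -0.54 (SE 0.15), or 1.47-fold and 1.43-fold lower within the experiments. This exceeded the SD within either condition, but each SD rests on 2 arrays, so that says little. A fall in both experiments was common, at 31.0% of all probes well above background. The share of probes that separated the conditions as Cd9 did is not given here. The Cd9 difference kept its sign under each alternative processing, between -0.55 and -0.42.

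Cd81, a close relative of Cd9 and a part of the B cell co-receptor, had 16.61 and 16.53 in siControl and 16.07 and 16.71 in siFxr1. The lowest and the highest of these values were both siFxr1. The differences within the experiments, -0.54 and 0.17, had opposite signs. Cd63, a tetraspanin of late endosomes and exosomes, had 18.29 and 18.07 in siControl and 18.33 and 18.26 in siFxr1. Its conditions overlapped, and the mean difference was 0.11 (SE 0.17).

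Cd82, known as a suppressor of metastasis and as a surface protein of muscle stem cells, was measured by 3 probes on chromosome 2. The brightest, A_55_P2048794, had 16.88 and 16.30 in siControl and 16.90 and 16.68 in siFxr1, a mean difference of 0.20 (SE 0.28). For A_55_P2137927 the signal was 13.39 and 13.79 in siControl and 13.57 and 13.65 in siFxr1, and for A_55_P2048800 it was 11.72 and 12.15 in siControl and 12.26 and 12.14 in siFxr1. In none of the 3 were both siFxr1 samples above both siControl samples, and the mean differences of the dimmer pair were 0.02 (SE 0.22) and 0.27 (SE 0.23).

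Cd151 binds laminin-binding integrins such as those containing Itga3, Itga6 and Itga7. Its brighter probe, A_51_P343252, had 16.00 and 15.29 in siControl and 15.96 and 15.25 in siFxr1, and the other, A_55_P1960216, had 13.41 and 12.34 in siControl and 13.73 and 12.16 in siFxr1. On both probes the experiments stood apart and the conditions did not. The mean differences between the conditions were -0.04 (SE 0.42) and 0.07 (SE 0.76). With the experiment as a block these SEs were 0.19 and 0.24.

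In the fit of the conditions with limma, 0 of the 11 probes had a B value, the log odds of a change, above 0, as did 0% of all probes, where 2764 reached an unadjusted p under 0.05. When the experiment was added as a block and the probes were restricted to those well above background on both arrays of a condition, 1 of 10 tetraspanin probes, that of Cd53, had a B value above 0, and 1.39% of the probes in that fit did. Of the same 10, 1 was at least 2-fold higher in siFxr1 in both experiments, against 1.94% of all such probes, and 0 were 2-fold lower in both, against 1.71%. These counts rest on the contrast on which Cd53 was selected, and Cd53 passed the filter through its siFxr1 arrays. Of the 10 probes, 4 were higher in siFxr1 in both experiments, 2 lower in both and 4 of opposite sign, and their median difference was 0.09, beside 0.02 for all 25540 probes well above background. Over those 25540 probes, 33.2% were higher in both experiments and 31.0% lower in both.

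**Figure D2:**
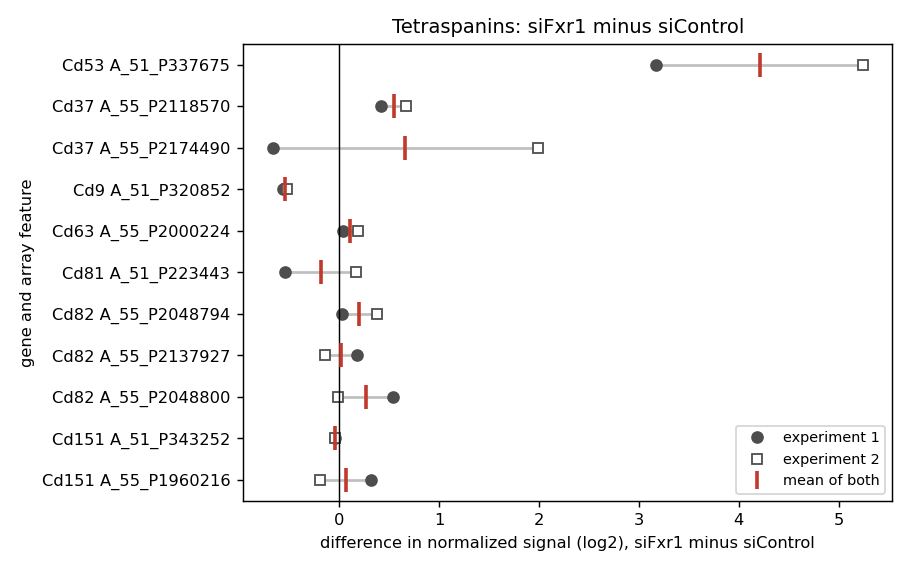
Difference in normalized log2 signal between siFxr1 and siControl (x axis) for the 11 tetraspanin probes (y axis) in experiment 1 (filled circles) and experiment 2 (open squares), with the mean of both as a red bar. Cd53 stands at 3.17 and 5.24, Cd9 at -0.56 and -0.52, and the other means lie between -0.18 and 0.66.

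The selection of the genes did not use the difference between the experiments, and this was tested with limma with the condition as a term. Of the 11 probes, 0 had a B value above 0, where 1.19% of all probes did, and 2, both of Cd151, had an unadjusted p under 0.05, as did 20.1% of all probes. Across all probes, 190 were called higher in experiment 1 and 474 higher in experiment 2. On the probes well above background alone, 625 were called higher in experiment 1 and 659 in experiment 2.

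Cd151 was higher in experiment 1 in both conditions. The probe A_55_P1960216 differed by 1.58 in siFxr1 and by 1.07 in siControl, a mean of 1.32 (SE 0.24, limma adjusted p = 0.140) or 2.50-fold. The probe A_51_P343252 differed by 0.71 in both conditions (SE 0.19, limma adjusted p = 0.207). The dimmer Cd151 probe had a B value above 0 in 3 of the alternative processings, those with normexp correction, with no background correction and with the deposited normalized table, where its limma adjusted p was 0.0193, 0.0134 and 0.0111. Without a B value above 0, it was 0.00677 with scaling to the 75th percentile, 0.0312 with median minus local background and 0.023 with the filter on dim probes. With outlier spots kept, the median over spots and no condition term it was 0.142, 0.141 and 0.103.

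Cd37 also had its higher signals in experiment 1 on the brighter probe, by 0.48 in siFxr1 and 0.73 in siControl, a mean of 0.60 (SE 0.21, limma adjusted p = 0.267). Cd53 ran the other way. It was lower in experiment 1 by 2.60 in siFxr1 and by 0.53 in siControl, a mean of -1.57 (SE 0.61, limma adjusted p = 0.315). After scaling to the 75th percentile, at -1.87, it was called (SE 0.48, limma adjusted p = 0.00224). In that fit the adjusted p of the 11 probes fell strictly with the size of the difference. That p-value therefore does not measure the spread of Cd53 itself. Cd9 differed by -0.01 (SE 0.19), a sign that turned to 0.56 under that scaling, and Cd63 by 0.14 (SE 0.20). Of the 11 probes, 5 were higher in experiment 1 in both conditions, 2 were higher in experiment 2 in both, and 4 differed in sign between the conditions. The shares of all probes that did so are not given here, so these counts have no baseline.

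Muscle differentiation markers differed between the experiments beside these values. All 11 muscle markers well above background lay higher in experiment 1 for siFxr1 and for siControl, with a median difference of 1.93, beside 0.07 for all probes well above background. Under the other scaling and each other background correction 10 of the 11 did. The share of all probes higher in experiment 1 in both conditions is not given here. Myog, the myogenic factor that drives differentiation, was higher by 2.12 and Mylpf, a fast-muscle myosin light chain, by 3.53 (limma adjusted p = 0.108 for each), and both had a B value above 0. Tnnt1, a troponin, was higher by 2.18, Ckm, muscle creatine kinase, by 2.82, and Myh3, the embryonic myosin heavy chain, by 1.93. Between the conditions 3 of the 11 were higher in siFxr1 in both experiments and 5 lower in both, with differences of -0.62 for Myh3, -0.45 for Myod1, 0.33 for Pax7, 0.26 for Des and 0.25 for Mylpf. The part of differentiation in the Cd151 values was not tested.

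**Figure D3:**
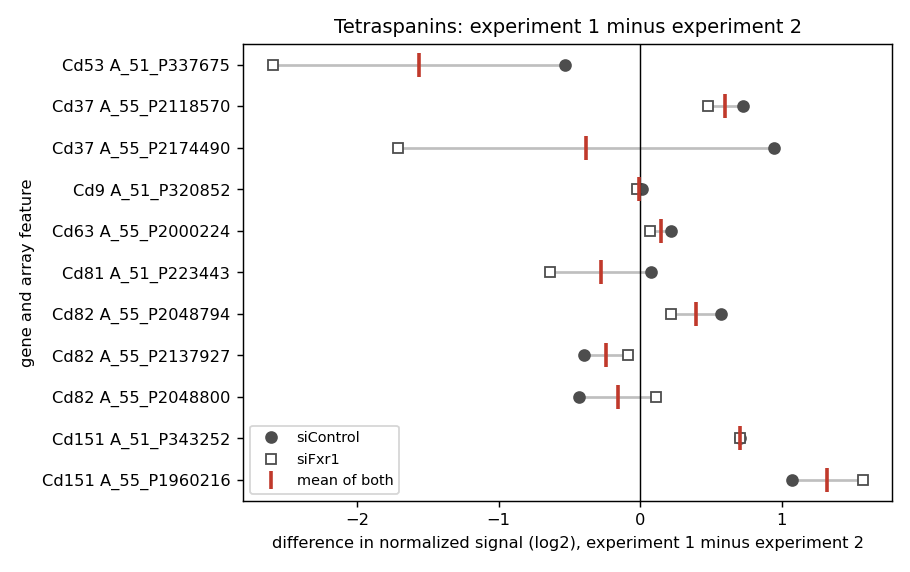
Difference in normalized log2 signal between experiment 1 and experiment 2 (x axis) for the 11 tetraspanin probes (y axis) in siControl (filled circles) and siFxr1 (open squares), with the mean of both as a red bar. Both Cd151 probes lie to the right of 0, at means of 0.71 and 1.32, and Cd53 lies to the left, at -2.60 in siFxr1 and -0.53 in siControl.

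Whether other leukocyte transcripts moved beside Cd53 was read from a list of markers. Of 20 on the array, 11 were not well above background on any array, among them Ptprc, the phosphatase carried by nearly all leukocytes, Cd3g of T cells, Cd79a, Cd79b and Ms4a1 of B cells, and Tyrobp, Laptm5 and Vav1, which serve leukocyte signalling or sorting. The summed normalized signal of the 20, on the linear scale, was 8324 and 20630 in siControl and 10990 and 20960 in siFxr1, so the conditions overlapped and the experiments did not. Itgam and Cd14 made up 54.7% to 86.5% of that sum, so it says little of dimmer markers. Of the 7 markers well above background on both arrays of a condition, 3 were higher in siFxr1 in both experiments, 0 were lower in both and 4 differed in sign. Over all such probes, 33.2% were higher in both and 31.0% lower in both. The median difference of the 7 was 0.25. Outside the 7, Cd68 differed by -0.96 and -0.87, and was well above background only in experiment 2, in both conditions. Lyz2 differed by -3.58 and -0.02, and was well above background only in siControl of experiment 1. Fcer1g, the common gamma chain of Fc receptors, had 6.18 and 6.85 in siControl and 8.04 and 8.57 in siFxr1, a difference of 1.79 (SE 0.36). It was the only one of the 7 called, in the blocked fit of probes well above background (SE 0.23 in that fit, limma adjusted p = 0.0403), where 1.39% of all probes of that fit were. Csf1r, the receptor for the macrophage growth factor, differed by 0.91 and 0.78, and Coro1a, an actin-binding protein, by 0.38 and 0.79. The mean difference was 0.25 for Itgam and 0.13 for Itgb2, both of which differed in sign. Itgam, an integrin chain of myeloid cells, and Cd14 stood apart by experiment rather than by condition, with experiment differences of -2.03 (SE 0.32) and -0.92 (SE 0.24). Coro1a differed by -0.86 and Fcer1g by -0.60. Cd3e, a chain of the T cell receptor complex, was well above background on the 4 arrays, at 10.52 and 9.48 in siControl and 10.60 and 9.40 in siFxr1, and was higher in experiment 1 by 1.12 (SE 0.20). Of fibroblast markers 4 of 6 were well above background, 1 higher in siFxr1 in both experiments and 3 lower, and of endothelial markers 3 of 5, 2 of them higher in both.

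**Figure D4:**
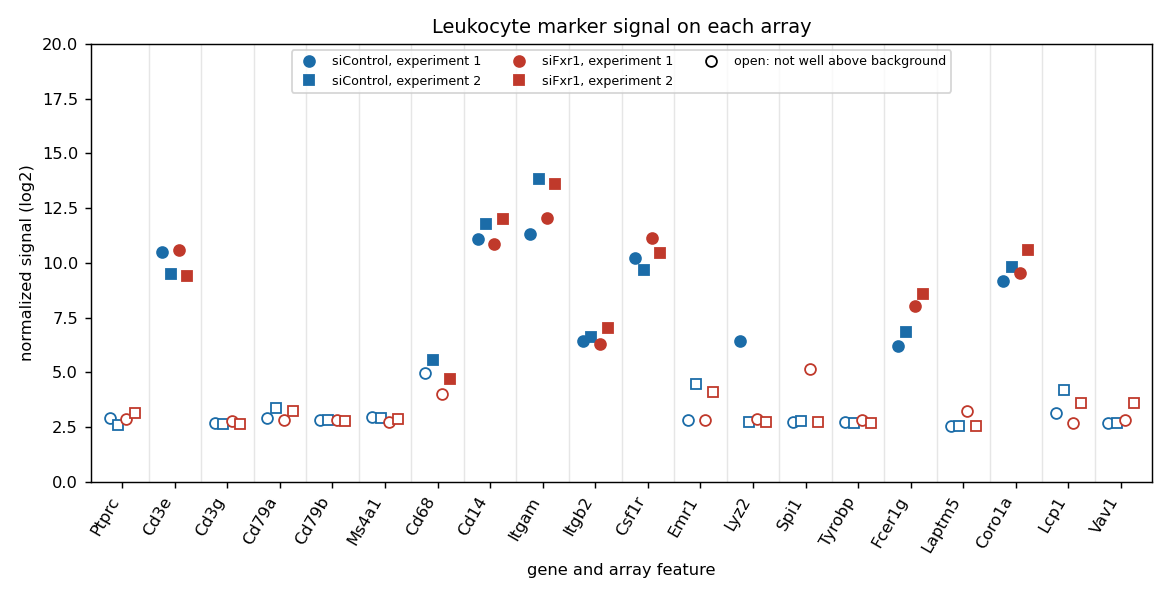
Normalized log2 signal of 20 leukocyte markers (x axis, brightest probe of each) on each array (y axis); blue is siControl, red is siFxr1, circles are experiment 1, squares are experiment 2, and open symbols were not well above background. Ptprc and the B cell markers have open symbols throughout, and Fcer1g lies at 6.18 and 6.85 in siControl and at 8.04 and 8.57 in siFxr1.

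Besides Cd53, 7 leukocyte transcripts of the same selected list were taken for values only. All 7 were at least 2-fold higher in siFxr1 in both experiments, with a median difference of 2.60, which the selection itself fixes, and of 1.75 without background correction. In 4 of the 7, siControl was not well above background on either array, so only a bound is given, set on each siControl array at the gene's own signal or, if that is lower, at the dimmest signal the software still marked as well above background. Klrb1a, a natural killer cell receptor, was at least 20.5-fold higher in siFxr1, Tnfrsf18, a costimulatory receptor of T cells, at least 13.9-fold, Il18rap, a chain of the interleukin-18 receptor, at least 5.93-fold, and Gzme, a granzyme, at least 5.61-fold. With these at their bounds the median difference was 2.57. Ptpn7, Dok2 and Mcpt8 differed by 2.60, 2.54 and 2.39.

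The 5 genes whose pattern over the 4 arrays was most like that of Cd53 were taken from 14736 genes, by the root mean square difference after each probe was centred on its own mean. They were Mmp9, a secreted gelatinase, at 0.629, Il18rap at 0.631, Stmn3, a stathmin that binds tubulin, at 0.713, Tprg at 0.735 and Itln1, a lectin, at 0.744. Mmp9 had 5.40 and 4.24 in siControl and 7.81 and 9.92 in siFxr1. As in Cd53, siFxr1 of experiment 2 was the highest of the 4. The likeness uses the same arrays on which Cd53 was selected, and Il18rap is of that selected list too. The candidates were named genes well above background on both siFxr1 arrays, where Cd53 was high, with no such demand on siControl. In siControl, Il18rap, Stmn3, Tprg and Itln1 were not well above background on either array and Mmp9 was not in experiment 2, so these distances and their order rest partly on signals without a measured level.

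The rest of the tetraspanin family was read from a list. Of 24 on the array, 18 were well above background on both arrays of a condition. Between the conditions 4 of the 18 were higher in siFxr1 in both experiments, 4 lower in both and 10 of opposite sign, with a median difference of 0.09, and 0 were called with or without the block. Upk1a, a uroplakin of bladder epithelium, was the only one 2-fold higher in both experiments, at 7.36 and 7.80 in siControl and 8.60 and 8.93 in siFxr1, a difference of 1.18 (SE 0.26). Tspan8 differed by 0.95 (SE 0.65) and Tspan2 by 0.47 (SE 0.75). On the other side, Tspan7 differed by -0.80 (SE 0.27) and Tspan15, one of the tetraspanins that escort the protease Adam10, by -0.67 (SE 0.18). Both passed the filter only through their siControl arrays. In siFxr1 of experiment 1 neither was well above background, so the size of these differences rests partly on signals without a measured level.

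Between the experiments, 12 of the 18 lay higher in experiment 1 for siFxr1 and for siControl and 2 in experiment 2, with a median difference of 0.40, and 0 were called. Under the other scaling and background corrections, 9 to 14 of the 18 lay higher in experiment 1. For these counts too, the share of all probes is not given here. The widest was Tspan33, another Adam10 escort, at 12.22 and 9.13 in siControl and 11.90 and 9.72 in siFxr1, a difference of 2.64 (SE 0.32, limma adjusted p = 0.110). Tspan13 followed with 2.38, Tspan2 with 1.27, Tspan32 with 1.02 and Tspan8 with 0.90.

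**Figure D5:**
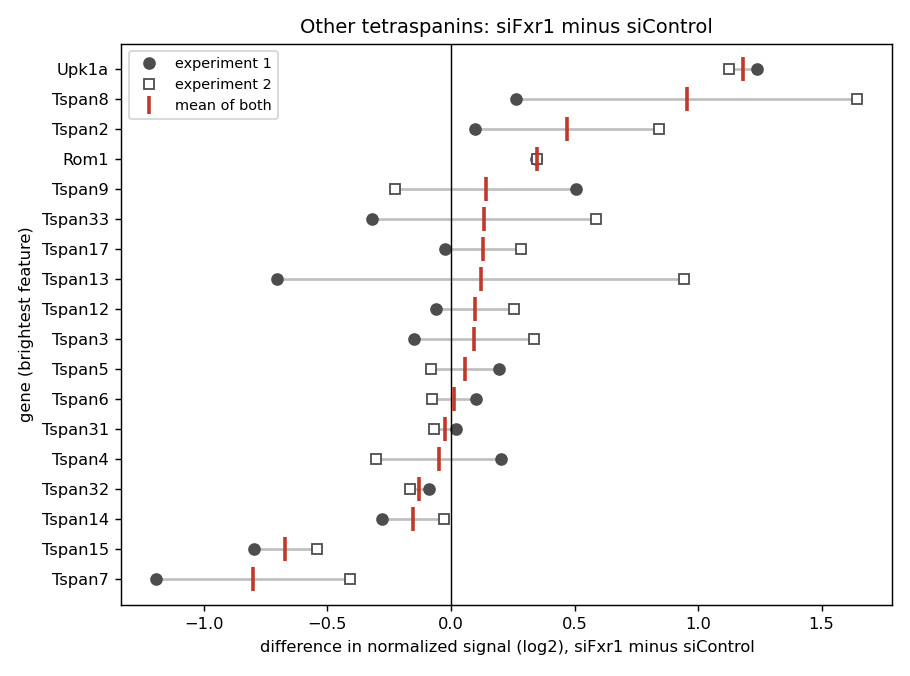
Difference in normalized log2 signal between siFxr1 and siControl (x axis) for the 18 other tetraspanins well above background (y axis, brightest probe of each) in experiment 1 (filled circles) and experiment 2 (open squares), with the mean of both as a red bar. Upk1a has the largest mean, 1.18, and Tspan7 the lowest, -0.80. Tspan7 and Tspan15 were not well above background in siFxr1 of experiment 1.

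The proteins that tetraspanins bind were listed as well. Of 15 partners, 14 were well above background on both arrays of a condition, 8 higher in siFxr1 in both experiments, 3 lower in both and 3 of opposite sign, with a median difference of 0.41. Of all probes well above background, 33.2% were higher in both. In the fit of the conditions without a block 0 were called. In the blocked fit of probes well above background 3 were called, all higher in siFxr1, where 1.39% of all probes of that fit were. One of them, Itga4, passed the filter only through the siFxr1 arrays. Without it 2 of 13 were called, 7 were higher in both and the median difference was 0.29. Sdcbp, the scaffold syntenin that binds Cd63, had 11.17 and 11.09 in siControl and 12.74 and 12.50 in siFxr1 (difference 1.49, limma adjusted p = 0.0551). Hbegf, a growth factor precursor bound by Cd9, had 9.77 and 8.45 in siControl and 11.43 and 10.20 in siFxr1 (difference 1.70, limma adjusted p = 0.0440). Itga4, an integrin chain of leukocytes and myoblasts, was well above background in siFxr1 alone, at 5.64 and 5.85 against 3.95 and 2.68. This makes it at least 2.26-fold higher in siFxr1.

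Among the other partners, Adam17, a shedding protease linked to Cd9, was lower by 1.33 and 1.27 in the experiments (mean difference -1.30, SE 0.37). Itga3, the Cd151 partner, differed by -0.94 (SE 0.50). The binding partners of Cd9 and Cd81, named here after their values were seen, differed by 0.53 for Igsf8 (SE 0.36) and by -0.13 for Ptgfrn (SE 0.28). Between the experiments 0 of the 14 were called, with Hbegf at 1.27, Itga5 at -0.85, Itga3 at -0.83, Adam17 at 0.61 and Itga4 at 0.53.

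Cd9 and Cd81 act in myoblast fusion, and 13 genes of fusion were on the array, 12 of them well above background. Between the conditions 5 of the 12 were higher in siFxr1 in both experiments, 3 lower in both and 4 of opposite sign, and 0 were called with or without the block. Jam2, an adhesion molecule, differed by 0.78 (SE 0.32), its relative Jam3 by 0.65 (SE 0.17) and Vcam1, the ligand of integrins with Itga4, by 0.70 (SE 0.53). The fusogens Mymk and Mymx, named Tmem8c and Gm7325 in the array annotation, differed by -0.66 (SE 1.23) and 0.72 (SE 1.44). Between the experiments they were higher in experiment 1 by 2.18 (SE 0.29) and 2.53 (SE 0.37), and Cdh15, the muscle cadherin, by 0.97, Cd164, a sialomucin, by 0.94 and Vcam1 by 0.62, with 0 of the 12 called.

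Promoter windows from 250 bases before to 50 bases after the start, from RefSeq on GRCm38.p6, were read for the 7 genes, which have 11 windows. The leukocyte pair is shown, up to 30 bases after the start, because it shares a sequence. The capitals mark ACTTCCTC, the reverse strand of GAGGAAGT, a core bound by ETS factors such as Spi1 (PU.1). The motif was chosen after these windows had been read, and was searched for on both strands.
Cd53, minus strand, chr3:106790120-106790399: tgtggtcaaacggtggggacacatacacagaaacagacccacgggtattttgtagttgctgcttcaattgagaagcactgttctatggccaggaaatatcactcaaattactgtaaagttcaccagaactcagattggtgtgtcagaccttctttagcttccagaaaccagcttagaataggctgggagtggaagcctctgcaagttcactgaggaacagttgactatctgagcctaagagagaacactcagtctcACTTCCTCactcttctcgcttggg
Cd37, minus strand, chr7:45238810-45239089: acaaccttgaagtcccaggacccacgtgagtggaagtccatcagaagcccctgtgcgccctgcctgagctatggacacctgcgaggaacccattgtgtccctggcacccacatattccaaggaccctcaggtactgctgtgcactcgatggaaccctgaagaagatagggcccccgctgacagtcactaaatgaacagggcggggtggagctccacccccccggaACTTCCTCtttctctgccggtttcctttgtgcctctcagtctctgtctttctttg
Counted from the start, the motif begins at position 7 in Cd53 and at -25 in Cd37. It was found in 1 of 9 windows of the other 5 genes, one of Cd82 at -225, and in 3.20% of 32851 windows of the same length. GGGCGG, the core of a GC box, was in 5 of those 9 windows, in the Cd37 window, not in that of Cd53, and in 35.7% of all windows. The Cd53 window had a GC content of 46.3% and 4 CpG, that of Cd9 61.3% and 18, and that of Cd81 65.7% and 23, beside medians of 52.7% and 7 over all windows. Spi1, named Sfpi1 in the array annotation, was not well above background on any array.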

How the data were processed

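Total RNA of the 4 samples was hybridised to one-colour Agilent mouse arrays. The authors deposited the scanner intensity of each spot, from Feature Extraction 10.7.3.1, background-corrected within the array and not normalized between arrays, and a table of normalized intensities, which was used as an alternative. The 7 genes and all gene lists were chosen with earlier results of these data known. Genes were named by this rule: all probes of the 7 genes, up to 5 genes per list by the size of each of the 2 differences (conditions, experiments) among those well above background, the 5 genes most like Cd53, and the selected leukocyte transcripts. Some genes of these lists are not reported here and were left out of the counts. Symbols came from the array annotation, updated for 26413 probes through RefSeq accessions. Exon and UTR annotation was not used here.

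Intensities of 59305 non-control spots were taken to log2 and quantile-normalized in R 4.3.3, outlier spots (145 to 177 per array, 0 of the 7 genes) were left out, and spots of a probe were averaged. A gene of a list is represented by its brightest probe. Some of these genes have further probes, whose values are not given here and may differ. Among them are Itgam and Csf1r, with 3 probes each, and Sdcbp, Itga4 and Adam17, with 2 each. The mark for a signal well above background was needed on a share of 0.5 or more of the spots of a probe. Models were fitted to all 55681 probes with limma 3.58.1 (lmFit, eBayes), a call being a B value above 0, as in the study's methods. Adjusted p-values are Benjamini-Hochberg values over all probes of the fit. The fits were tested on simulated data with equal, independent noise for every probe, set at the median residual SD with the block, 0.19. On these arrays the median residual SD without the block was 0.34, so that test does not carry over to the fit without the block. The labels number the experiments, which pairs the samples: deviations from the condition means correlated at 0.714 within an experiment, and the experiments separated on principal component 1 (60.8% of the variance). Nothing beyond the label of independent experiments describes the cultures, so the spread may be partly technical. A two-sided exact permutation test of 2 against 2 arrays cannot go below p = 0.333.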

Additional observations from a re-analysis of the deposited data

Results flagged for a closer look

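Some tetraspanin probes moved in opposite directions in the 2 experiments, or in the 2 conditions, and in each case the difference between the 2 was not tested. Between siFxr1 and siControl, Cd37 A_55_P2174490 differed by -0.66 in experiment 1 and 1.99 in experiment 2, Cd81 by -0.54 and 0.17, Cd82 A_55_P2048800 by 0.54 and -0.00815, Cd82 A_55_P2137927 by 0.18 and -0.14, and Cd151 A_55_P1960216 by 0.32 and -0.19. Between experiment 1 and experiment 2, Cd37 A_55_P2174490 differed by 0.95 in siControl and -1.71 in siFxr1, Cd81 by 0.0769 and -0.64, Cd82 A_55_P2048800 by -0.43 and 0.11, and Cd9 by 0.0138 and -0.0257. The Cd37 probe was well above background on 1 array only. The other probes named were well above background on the 4 arrays.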

How the results depend on the processing

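Between the conditions, the count of called probes was 0 without a block and with the replicate block alone, 354 with the replicate block and the filter on dim probes, 345 with the block and median minus local background, and 1107 with the 4 ratios as observations, which share arrays. Between the experiments it was 664, and 3202 with scaling to the 75th percentile, 1929 with normexp correction, 2127 without background correction, 1717 with median minus local background, 2240 in the deposited table, 1284 with the filter on dim probes and 0 at an adjusted p under 0.05, where 11172 had an unadjusted p under 0.05. The tetraspanin probes called between the experiments rose from 0 to 1 with the scaling (Cd53), with normexp correction, without background correction and in the deposited table (Cd151). The Cd53 difference between the conditions, 4.21, was 2.62 with normexp correction, 2.49 without background correction and 2.50 in the deposited table, and 2.91 to 5.51 with each array left out.

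Differences between the experiments that turned sign with the scaling were 0.13 and 0.21 for Cd82 A_55_P2048800 and A_55_P2137927, 0.34 for Cd81 and 0.56 for Cd9, and that of Cd9 was also 0.10 with normexp correction, 0.0782 without background correction, 0.0787 with median minus local background and 0.0778 in the deposited table. With each array left out, they ran from -0.43 to 0.11 for Cd82 A_55_P2048800, -1.71 to 0.95 for Cd37 A_55_P2174490, -0.64 to 0.0769 for Cd81 and -0.0257 to 0.0138 for Cd9. These ends are the differences within a single condition that are given above, and so are no separate check. The causes were not tested. Leaving out an array leaves no residual degrees of freedom for the count between the experiments, which was not run. Between the conditions, 122 of 131 values moved by less than the spread between replicates, but for many of them this was fixed in advance. Leaving out an array cannot move a difference by more than that spread. The tetraspanin probes have 1 spot each and 0 outlier spots. Keeping outlier spots, the median over spots and the filter on dim probes therefore left their values unchanged. Of the values that moved by more than the spread, 5 were of Cd9, 3 of Cd53 and 1 of Cd63. Over all alternatives the difference spanned 0 for Cd82 A_55_P2048794 (-0.08 to 0.49) and A_55_P2137927 (-0.18 to 0.22), Cd151 A_55_P1960216 (-0.72 to 0.85) and A_51_P343252 (-0.39 to 0.32), Cd37 A_55_P2174490 (-0.19 to 1.52) and Cd81 (-0.50 to 0.14).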
